A study of Homo sapiens with 18 samples.

Results

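BE2C cells that carried the hairpin shAhR-2 against AHR were compared with BE2C cells that carried the control vector. BE2C is an established human neuroblastoma line, a clonal subline in which the MYCN oncogene is amplified. The comparison took all genes of 6 of the 18 libraries in the series, 3 labelled BE2C with shAhR-2 and the AhR knockdown genotype and 3 labelled BE2C with pLKO-GFP and the control genotype (pLKO is a lentiviral vector series used to express hairpins). The other 12 libraries were BE2C with a further hairpin, shAhR-1, and the same 3 groups of the Kelly neuroblastoma line. By its title, the study asked if AhR promotes dedifferentiation where MYCN is amplified. The sources used here give neither the time after infection, nor drug selection, nor the sequence of either hairpin. Because every cell of a group carried the same hairpin, an effect of losing AHR and any other effect of that hairpin cannot be told apart in these 6 libraries alone. Whether replicates were separate cultures is not stated in the labels, and p-values therefore reflect only the spread among these libraries, which may be technical. In bulk RNA, fewer cells of a type and less RNA per cell cannot be told apart.

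AHR encodes the aryl hydrocarbon receptor, a transcription factor that rests in the cytosol with HSP90 and cochaperones such as PTGES3. With a bound ligand it enters the nucleus, pairs with ARNT and binds promoters and enhancers through the core motif GCGTG, and CYP1A1, CYP1B1, TIPARP and AHRR are its best known targets. MYCN encodes a transcription factor of the MYC family that drives growth, ribosome production and cell division in neuroblastoma and holds back differentiation. Neuroblastoma arises from the sympathoadrenal branch of the neural crest, and its cells can resemble noradrenergic neurons or a mesenchymal precursor state. Retinoic acid is a known route of differentiation in these cells.

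The 6 libraries held 41969936 to 44712058 counts over 39368 genes. Levels are given as CPM, counts scaled to a common library size with TMM factors, and differences are log2 fold changes of shAhR-2 over control with their SE. A gene was called when its Benjamini-Hochberg adjusted p in edgeR's quasi-likelihood test was below 0.05, and 15732 genes passed the expression filter. In a principal component analysis of the 9 BE2C libraries the leading component took 70.8% of the variance and placed the shAhR-2 libraries at −93.07 to −90.56, the controls at 48.68 to 51.17 and the shAhR-1 libraries at 39.93 to 42.91. Mitochondrial genes took 18.78%, 19.07% and 19.38% of counts in the controls and 25.08%, 20.53% and 20.49% with shAhR-2. With shAhR-1 they took 24.27%, 24.91% and 24.27%. Replicate 1 of shAhR-2 stood apart from replicates 2 and 3 in raw counts, with a chi-square of 20.9 and 22.8 per degree of freedom. Replicates 2 and 3 differed from each other by 3.52 and the controls among themselves by 4.23 to 5.23. In log CPM the controls correlated among themselves at 0.98999 to 0.99029, and shAhR-2 replicates 2 and 3 at 0.99239. Replicate 1 of shAhR-2 correlated with its replicates 2 and 3 at 0.9918 and 0.99193. Without that library 11454 genes were called, 11292 of which were among the 11817 calls of all 6 libraries with the same sign, and none was called in the opposite direction.

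**Figure D1:**
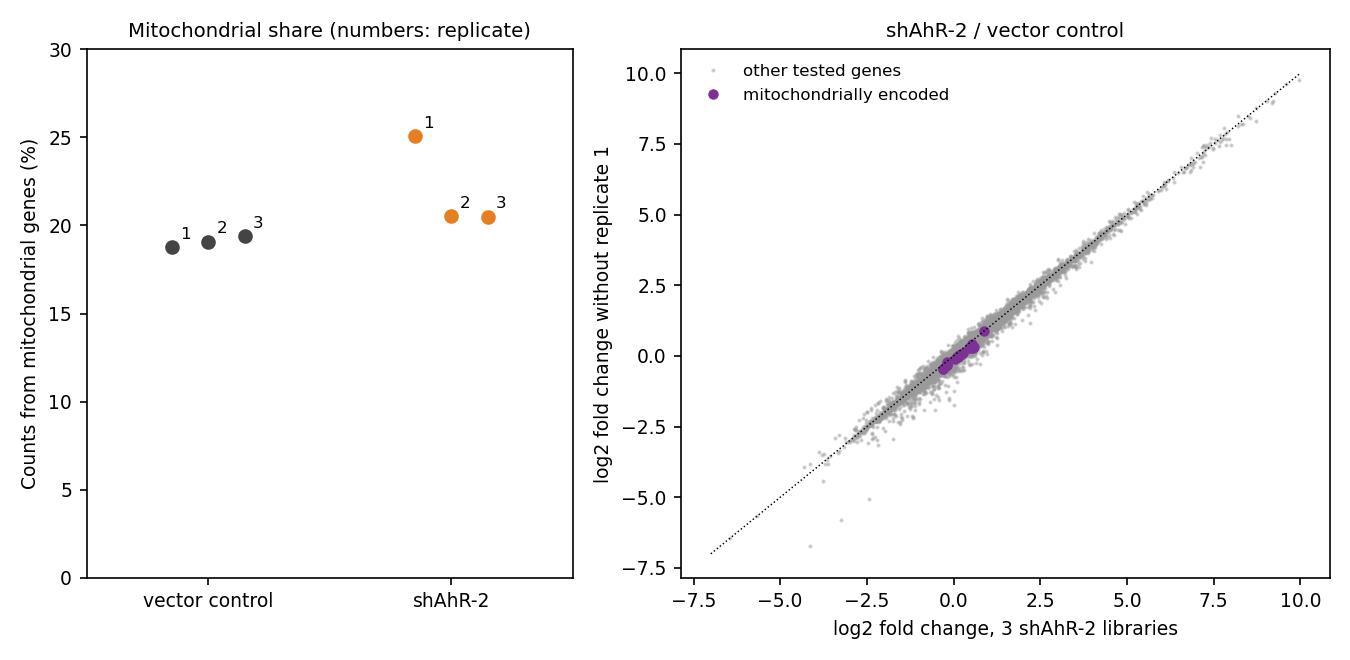
The left panel plots the percentage of counts from mitochondrial genes in each of the 6 libraries, with replicate numbers beside the points, where shAhR-2 replicate 1 lies at 25.08% and the other 5 between 18.78% and 20.53%. The right panel plots each gene's log2 fold change without that library against the value from all 3 shAhR-2 libraries, with mitochondrially encoded genes in purple and a dotted line at equal values; genes lie along the line.

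AHR itself (chromosome 7, 16916359 to 17346152, plus strand, GRCh38, GENCODE release 29) was at the limit of detection. The controls held 4, 4 and 6 AHR counts and the shAhR-2 libraries 0, 0 and 0, so the groups did not overlap. Pooled over the group the rate ratio was 0, with an exact 95% upper limit of 0.293 that covers counting error only. A 2-sided exact permutation test of the AHR level gave p = 0.1, which is the smallest p that 3 libraries against 3 allow. Low counts in these libraries were mostly even, and halving every count, rounded up, raised that limit to 0.675. The gene did not pass the expression filter, so it has no fitted fold change, and its annotation shares 29.4% of its exonic bases with another gene on the same strand.

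The response to shAhR-2 was broad. Of 15732 tested genes 5972 were called higher (38%) and 5845 lower (37.2%), 75.1% in all. At a threshold of 2-fold, 2885 genes were higher (18.3%) and 1491 lower (9.48%). Large rises were far more frequent than large falls, with 1246 genes higher by at least 4-fold and 193 lower, and 558 against 22 at 8-fold. The median log2 fold change of all tested genes was 0.03. Genes that were at least 2-fold higher had a median of 0.782 CPM in the controls and 3.43 CPM with shAhR-2, and 1552 of them lay under 1 CPM in the controls. Genes that were at least 2-fold lower started from a median of 37.5 CPM and reached 14 CPM. The risers took 2.39% of all CPM in the controls and 7.22% with shAhR-2, while the fallers went from 12.2% to 4.63%. Among genes with a GENCODE match, 2332 of 2755 such risers and 1311 of 1434 such fallers were protein-coding, beside 13284 of 15109 tested genes. A gene that is low in the controls passes the filter only if it is high elsewhere, and the same holds for a gene low with shAhR-2. Of the 2885 risers 1064 were under the filter level of 0.232 CPM in at least 1 control. The part of this selection in the excess of large rises was not tested. All 3 shAhR-2 libraries lay above every control for 39.1% of tested genes and below every control for 37.8%, and genes named below for the size of their change were chosen among these.

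**Figure D2:**
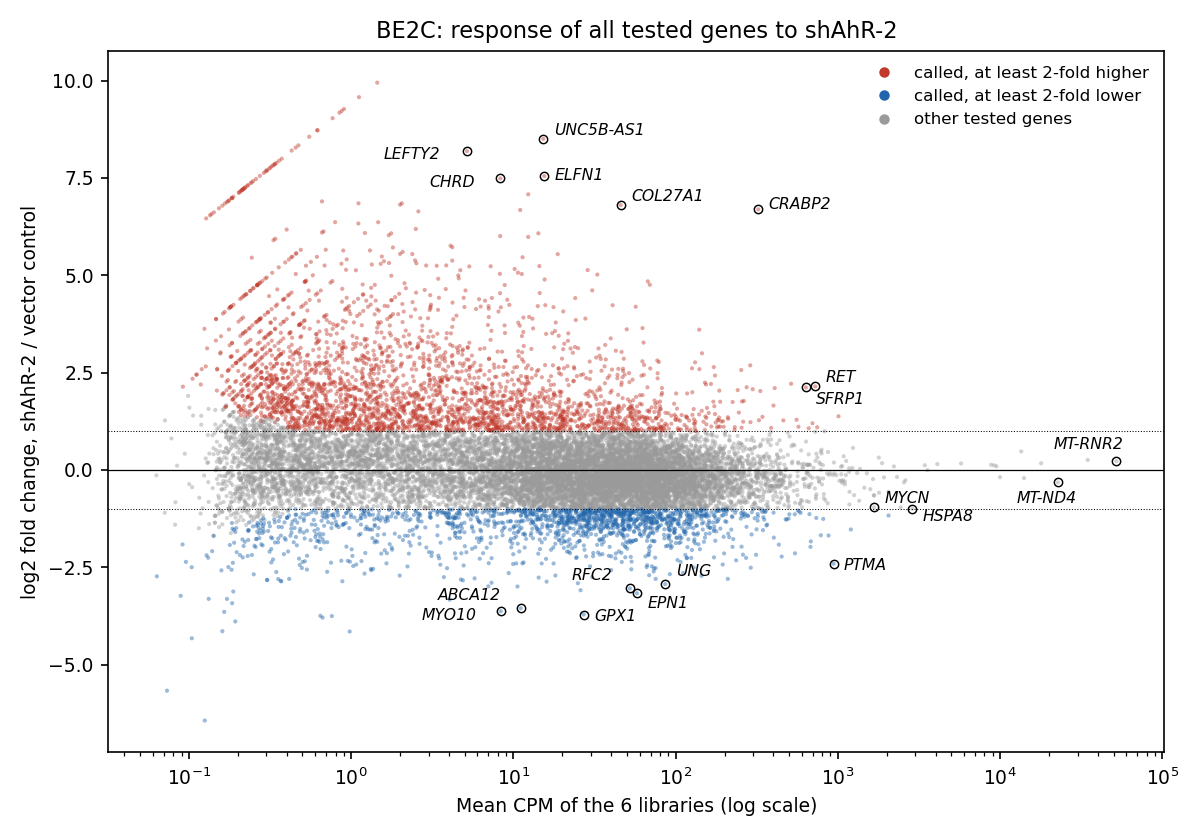
Each point is 1 of the 15732 tested genes, with the mean CPM of the 6 libraries on a log axis and the log2 fold change of shAhR-2 over control on the vertical axis; red and blue mark genes called and changed by at least 2-fold, and dotted lines mark 2-fold. The largest rises lie at low CPM, with CRABP2 standing out at a high level, and the falls spread over all levels.

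The 12 largest rises among called genes with a mean of at least 5 CPM came from genes of varied function. CRABP2 (chromosome 1, 156699606 to 156705816, minus strand), which carries retinoic acid to its nuclear receptor, had 6.604, 6.02 and 5.895 CPM in the controls and 668, 625 and 625 CPM with shAhR-2, a 104-fold rise (6.69 ± 0.053, adjusted p = 4.86e-40). LEFTY2, a secreted inhibitor of Nodal signalling, had 0, 0 and 4 counts in the controls and 470, 499 and 442 counts with shAhR-2 (8.19 ± 0.34). CHRD, which encodes the BMP antagonist chordin, had 0, 0.0714 and 0.197 CPM in the controls and 19.7, 14.4 and 15.4 CPM with shAhR-2. Each of the 3 was low in every control. COL27A1, a fibrillar collagen chain, had 0.874, 0.571 and 0.987 CPM in the controls and 96.9, 90.3 and 85.1 CPM with shAhR-2 (6.81 ± 0.11). COL13A1, a transmembrane collagen, rose by 6.01 ± 0.21 and BCAN, the brain proteoglycan brevican, by 5.54 ± 0.13. GATA5, a zinc finger factor of heart and gut development, reached 27.6, 21.8 and 23.4 CPM from 0.219, 0.428 and 0.493 CPM. The others of the 12 largest rises were the synaptic adhesion gene ELFN1 (7.55 ± 0.21), the kinesin gene KIF21B (6.68 ± 0.21), the scavenger receptor family gene SSC5D (6.08 ± 0.17) and the RNA genes UNC5B-AS1 (8.51 ± 0.22) and MIR1-1HG-AS1 (7.08 ± 0.24), the former with the largest rise of all 12. UNC5B-AS1 is an antisense RNA of the netrin receptor gene UNC5B, and with the strand setting not given its reads cannot be told apart from those of overlapping transcripts. All 12 had an adjusted p of at most 9.13e-20 by edgeR's quasi-likelihood test, and all 12 remained called without replicate 1 of shAhR-2.

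The 12 largest falls, under the same limits, were also of varied function. GPX1 (chromosome 3, 49357171 to 49358600, minus strand), the selenoprotein that reduces hydrogen peroxide with glutathione, had 51.5, 48.3 and 51.2 CPM in the controls and 4.45, 3.7 and 3.39 CPM with shAhR-2 (−3.71 ± 0.076, adjusted p = 3.65e-29). SLC7A11, the cystine importer that feeds glutathione synthesis, had 18.5, 19.5 and 18.5 CPM in the controls and 2.51, 2.11 and 2.46 CPM with shAhR-2 (−2.99 ± 0.11). UNG, which removes uracil from DNA, fell from 152 ± 4.28 to 19.97 ± 0.878 CPM (mean ± SD, n = 3, −2.93 ± 0.043), and RFC2, a subunit of the clamp loader of DNA replication, from 92.98 ± 1.77 to 11.3 ± 0.0782 CPM (−3.04 ± 0.049). MLST8, a subunit of the mTOR kinase complexes, fell (−3.09 ± 0.071) as did NFKBIB, an inhibitor of NF-kappa-B (−2.99 ± 0.13). EPN1, the endocytic adaptor epsin, had 109, 99.4 and 103 CPM in the controls and 12.1, 11.1 and 11.5 CPM with shAhR-2. MYO10, a myosin of filopodia, went from 15.5 ± 1.18 to 1.25 ± 0.259 CPM, and ARHGAP19, a GTPase-activating protein of dividing cells, from 44.05 ± 0.998 to 5.86 ± 0.635 CPM. NEU1, the lysosomal sialidase (−2.9 ± 0.13), ABCA12, a lipid transporter (−3.55 ± 0.098), and the antisense RNA CCNT2-AS1 (−2.87 ± 0.11) complete the 12. CCNT2-AS1 shares 26.6% of its exonic bases with genes on the other strand. All 12 falls had an adjusted p of at most 3.83e-20 in edgeR's quasi-likelihood test and remained called without replicate 1.

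**Figure D3:**
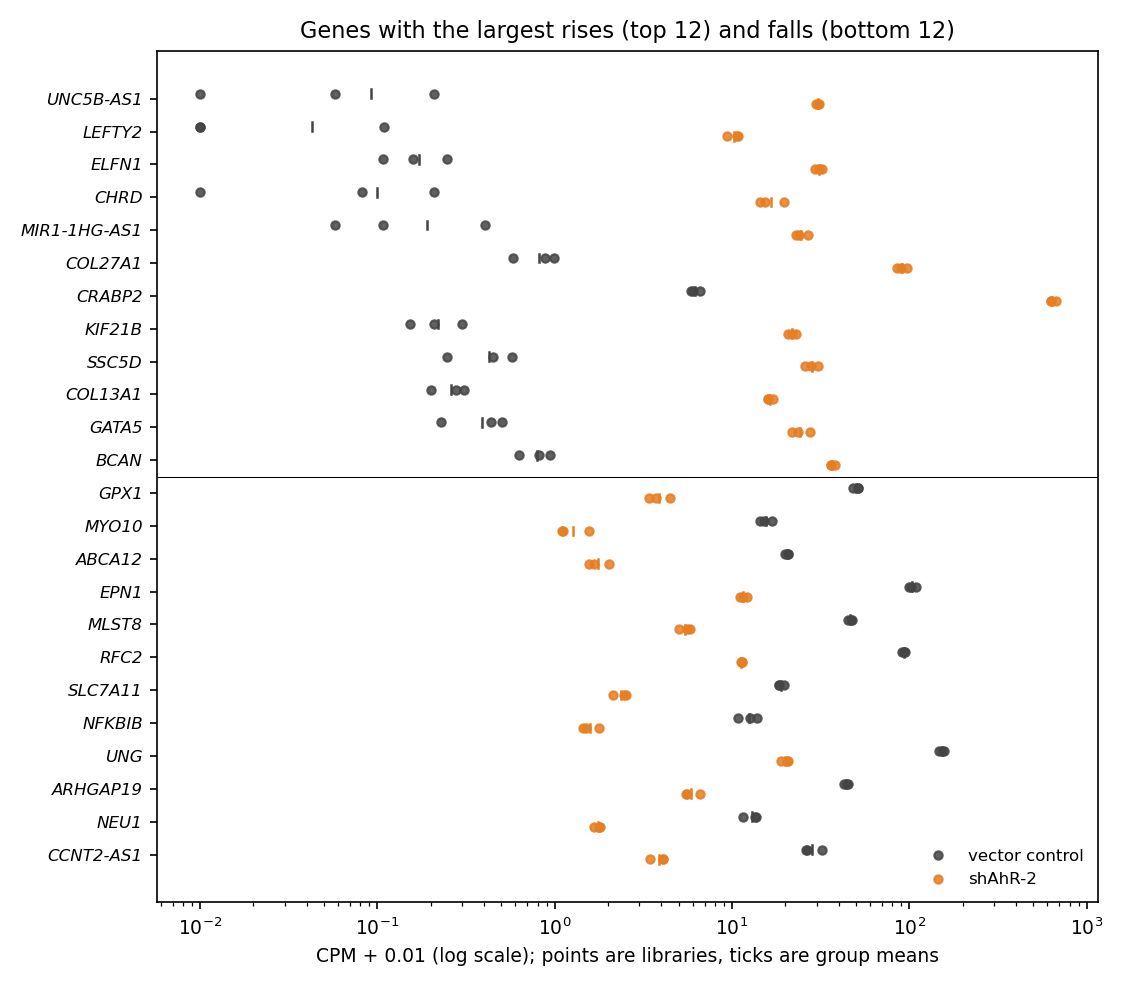
Points are the 6 libraries and short ticks the group means of the 12 genes with the largest rises and the 12 with the largest falls, in CPM + 0.01 on a log axis. Genes were chosen among those whose groups did not overlap, and CRABP2 reaches the highest CPM with shAhR-2.

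Some genes were at or near 0 counts in every control and present in every shAhR-2 library. ZNF503-AS1 had 0, 0 and 0 control counts and 92, 129 and 85 with shAhR-2, which was at least 99.3-fold higher by a floor of 3 counts over the group. THPO, the megakaryocyte growth factor, went from 0, 0 and 0 counts to 97, 76 and 65, at least 77.2-fold higher. VWA5A (0, 0 and 0 to 76, 80 and 92 counts, at least 80.4-fold) and SALL1, a zinc finger gene of kidney and limb development (0, 0 and 0 to 68, 88 and 54, at least 68.1-fold), behaved alike. All genes named here were chosen for a pooled control count of at most 3 and the highest CPM with shAhR-2. Their folds, ratios and intervals come from the same counts and are descriptions. DIO3OS had 0, 0 and 2 counts against 105, 110 and 86, a ratio of 146 with an exact 95% counting interval of 40.2 to 1215. CHST1, a keratan sulfate sulfotransferase, had 0, 0 and 2 against 86, 61 and 68 (ratio 105, 28.6 to 869), and FIGNL2 0, 1 and 2 against 99, 131 and 69 (ratio 97.0, 32.9 to 473). FIGNL2 shares 42.6% of its exonic bases with a gene on the other strand, and ZNF503-AS1 and DIO3OS are antisense RNAs, so reads of overlapping genes cannot be told apart from theirs. Fitted folds of these genes depend on the prior count and are not given. The intervals cover counting error only and were not computed again with halved counts.

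In CPM, which is not corrected for gene length and so leans to long transcripts, the largest gains and the largest loss were in mitochondrially encoded genes. MT-RNR2, a ribosomal RNA of the organelle, had 46459.5, 48388 and 48918 CPM in the controls and 67311, 50548 and 50559 CPM with shAhR-2 (0.23 ± 0.055). MT-CO1, a subunit of cytochrome c oxidase, had 30820.2, 31459 and 32342 CPM in the controls and 44155, 34706 and 34405 CPM with shAhR-2 (0.26 ± 0.048), and MT-ND1, of complex I, 11206, 11137 and 11501 CPM in the controls and 18444, 14316 and 14321 CPM with shAhR-2 (0.48 ± 0.049). In each of these the highest library was replicate 1 of shAhR-2, and without it the values were 0.07, 0.12 and 0.33, each still called. DESeq2 did not call MT-RNR2 (adjusted p = 0.0623). MT-CO3 had 0.17 ± 0.051 and lost its call without that library (adjusted p = 0.221 in edgeR's test). MT-ND4, another subunit of complex I, had 24485, 25365 and 25716 CPM in the controls and 23458, 18395 and 18736 CPM with shAhR-2 (−0.32 ± 0.047). Among nuclear genes the largest gain was in RET (chromosome 10, 43077027 to 43130351, plus strand), the receptor kinase for GDNF family ligands. Its libraries held 277, 249.5 and 275 CPM in the controls and 1186, 1184 and 1175 CPM with shAhR-2 (2.15 ± 0.033). SFRP1, a secreted Wnt inhibitor, had 237, 244 and 230.4 CPM in the controls and 1042, 1038 and 1013 CPM with shAhR-2. The nuclear long noncoding RNA MALAT1 (1.38 ± 0.044) gained as well, and EEF1A1, a translation factor with many processed pseudogenes, rose by only 0.17 ± 0.023 from a high level. The largest losses of nuclear genes were in HSPA8 and HSP90AA1, the cytosolic HSP70 and HSP90 chaperones (−0.99 ± 0.026 and −0.96 ± 0.027), and NCL, the nucleolar protein nucleolin (−1.17 ± 0.024). PTMA, prothymosin alpha, a known MYC target with processed pseudogenes, had 1609, 1536 and 1604 CPM in the controls and 306, 296 and 293 CPM with shAhR-2, the steepest fall of these genes. PABPC1, the poly(A)-binding protein, fell from 1783 ± 32.6 to 619 ± 8.26 CPM and PKM, the last enzyme of glycolysis, from 1336 ± 42.03 to 416 ± 10.6 CPM. The sources used here do not say how reads that map to both a gene and its pseudogenes were counted.

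Genes of the receptor's own pathway rose and fell in shares no higher than those of all tested genes (38% and 37.2%). Of 15 genes of the AhR complex and its coactivators 14 were tested, 4 rose and 5 fell, with a median of −0.1 beside 0.03 for all tested genes. The cochaperone PTGES3 fell from 917 ± 25.4 to 418 ± 10.9 CPM and HSP90AB1 fell as well (−0.56 ± 0.024), while ARNT, the nuclear partner, had 70.6, 66.1 and 64.5 CPM in the controls and 52.7, 54.0 and 54.99 CPM with shAhR-2 (−0.32 ± 0.045). The kinase SRC, released from the AhR complex in some models, rose from 35.2 ± 2.95 to 114 ± 4.504 CPM, and the coactivators NCOA1 (1.35 ± 0.048), NCOA2 (0.55 ± 0.047) and NCOA3 (0.38 ± 0.038) rose too. Among 16 target genes 9 were tested, 2 rose and 3 fell (median −0.01, and 0.00476 with RLE size factors), and CYP1A2, UGT1A6, IDO1 and SERPINB2 had no count in the 6 libraries. CYP1A1 averaged 0.5496 CPM in the controls and 0.2704 CPM with shAhR-2 (−1.02 ± 0.47, adjusted p = 0.0489), and the call was lost whenever any 1 of the 9 BE2C libraries was left out (adjusted p of 0.0523 to 0.187). CYP1B1 (1.02 ± 0.51, adjusted p = 0.0692), TIPARP (−0.01 ± 0.11, adjusted p = 0.958) and AHRR (−0.15 ± 0.57, adjusted p = 0.822) were not called by edgeR's quasi-likelihood test, although CYP1B1 was without control replicate 3 (adjusted p = 0.0429). Of the listed targets, the amino acid transporter gene SLC7A5 fell furthest, from 273 ± 8.802 to 77.6 ± 6.79 CPM (−1.82 ± 0.042), LPCAT2, a lysophospholipid acyltransferase, had −0.68 ± 0.041, and the cell cycle inhibitor CDKN1B rose from 92.9 ± 1.47 to 141 ± 5.89 CPM.

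MYCN (chromosome 2, 15940564 to 15947007, plus strand) had 2229, 2170.2 and 2221 CPM in the controls and 1145, 1143 and 1120.0 CPM with shAhR-2. All 3 shAhR-2 libraries lay below the lowest control, at −0.96 ± 0.024 (adjusted p = 1.42e-26). MYC, its paralog, stayed near 0 in both groups (0.226 and 0.283 CPM, adjusted p = 0.634). In the MAX network, 2 of 13 tested genes rose and 6 fell (14 listed, median −0.06, 1 under the filter level in a control). Over all tested genes 38% rose and 37.2% fell. MAX, the shared partner, fell (−0.41 ± 0.047), and MXD3, a MAX partner found in dividing cells, from 9.59 ± 0.357 to 2.66 ± 0.502 CPM. MXD4, a MAX partner that opposes MYC, rose from 20.1 ± 0.764 to 50.7 ± 0.896 CPM (1.33 ± 0.055), and MXI1 by 0.27 ± 0.057. Among 19 genes of G1 control 18 were tested, 5 rose and 11 fell (median −0.44, 1 under the filter level in a control). The kinases CDK4 (−1.17 ± 0.034) and CDK2 (−1.17 ± 0.061) and cyclin CCND3 (−1.49 ± 0.086) fell, the inhibitor CDKN1A rose from 3.89 ± 0.0701 to 13.1 ± 1.14 CPM and CCND1 by 0.19 ± 0.032. CDK4 shares 43.2% of its exonic bases with a gene on the other strand. Of 12 E2F and partner genes 2 rose and 9 fell (median −1.36). The activator E2F1 (−1.58 ± 0.039), the late repressors E2F7 (−1.82 ± 0.076) and E2F8 (−2.03 ± 0.098) and the mitotic factor FOXM1 (−1.47 ± 0.034) fell, while E2F3 (0.33 ± 0.036) and E2F6 (0.59 ± 0.047) rose.

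Genes of DNA replication and mitosis fell without exception among those listed. Each of the 35 replication and nucleotide genes was tested and fell, 28 by at least 2-fold, with a median of −1.36. Each of the 33 mitosis genes was tested and fell, 26 by at least 2-fold, with a median of −1.27. Over all tested genes 37.2% fell and 9.48% fell by at least 2-fold. RRM2, a subunit of the enzyme that makes deoxynucleotides, had 510.0, 468 and 503 CPM in the controls and 95.1, 83.3 and 81.9 CPM with shAhR-2 (−2.51 ± 0.041). CDT1, which licenses replication origins, fell from 77.9 ± 3.098 to 15.2 ± 1.502 CPM, the thymidine kinase TK1 from 57.8 ± 0.318 to 12.9 ± 1.21 CPM and PCNA, the sliding clamp, from 468 ± 4.36 to 163 ± 6.82 CPM. MKI67, the proliferation antigen Ki-67, had 855, 901 and 903 CPM in the controls and 182, 206 and 215 CPM with shAhR-2 (−2.14 ± 0.040). CENPE, the kinetochore motor, fell from 194 ± 4.23 to 40.6 ± 1.297 CPM, the kinase AURKB from 111 ± 2.81 to 24.9 ± 0.384 CPM and CDC20, the activator of the anaphase-promoting complex, from 109 ± 0.686 to 27.3 ± 0.526 CPM. The shAhR-2 libraries lay below every control for each of these genes, as they did for 37.8% of all tested genes. Genes named for the size of their change had to meet that condition.

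Promoters of mitotic genes are known for the element TTTGAA, the cell cycle homology region bound by the DREAM complex, and those of replication genes for the E2F site TTTCCCGC. Sequences are from RefSeq (GRCh38.p14), as windows from 250 bases before to 50 bases after each start site, both strands searched. TTTGAA was in 21 of 37 windows of the tested mitosis genes (56.8%), beside 15.2% of all 35116 windows and 10.7% of windows of tested genes. TTTCCCGC was in 11 of 44 windows of the replication genes (25%), beside 1.63% of all windows and 2.21% of those of tested genes. Shown are the 200 bases before the start site for examples from each list, in the direction of transcription, with matches in capitals. Each example fell, has a match there and has a mean of at least 5 CPM. The choice of examples did not cover every chromosome, so they need not be the steepest fallers with a match. MKI67 lies at chr10:128126424-128126623 (minus strand), CDC20 at chr1:43358781-43358980 (plus strand), CDT1 at chr16:88803589-88803788 (plus strand) and PCNA at chr20:5126623-5126822 (minus strand).
MKI67: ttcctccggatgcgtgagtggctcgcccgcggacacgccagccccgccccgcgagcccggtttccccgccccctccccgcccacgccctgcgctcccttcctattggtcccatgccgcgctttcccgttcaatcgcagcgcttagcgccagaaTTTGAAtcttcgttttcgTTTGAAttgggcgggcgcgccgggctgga
CDC20: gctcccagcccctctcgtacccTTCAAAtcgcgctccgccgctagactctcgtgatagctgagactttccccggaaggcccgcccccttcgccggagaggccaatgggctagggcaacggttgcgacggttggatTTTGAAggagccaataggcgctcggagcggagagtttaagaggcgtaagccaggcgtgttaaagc
CDT1: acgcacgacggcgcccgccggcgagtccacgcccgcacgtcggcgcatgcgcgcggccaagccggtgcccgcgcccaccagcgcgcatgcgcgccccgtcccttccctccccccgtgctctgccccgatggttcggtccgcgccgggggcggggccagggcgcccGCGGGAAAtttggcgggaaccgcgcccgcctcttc
PCNA: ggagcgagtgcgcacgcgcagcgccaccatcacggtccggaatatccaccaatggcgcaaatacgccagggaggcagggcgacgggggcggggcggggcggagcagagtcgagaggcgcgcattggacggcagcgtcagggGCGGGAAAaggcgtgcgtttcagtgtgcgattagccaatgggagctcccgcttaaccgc
Counted from the start site, the matches began at −47 and −29 in MKI67, at −178 and −65 in CDC20, at −35 in CDT1 and at −59 in PCNA. These letters describe the windows, and occupancy was not measured here. GCGTG, the AhR core motif, was in 52.6% of windows of genes at least 2-fold lower, 40.3% of those at least 2-fold higher and 47.5% of those of all tested genes. CACGTG, the E-box of MYC proteins, was in 11.4%, 6.3% and 9.08% of the same windows.

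Most genes for making ribosomes and charging tRNA fell as well. Of all tested genes 37.2% fell, 9.48% by at least 2-fold, and 38% rose. Of 27 nucleolar and ribosome assembly genes 25 fell and 2 rose, with a median of −0.86. POLR1A, the catalytic subunit of RNA polymerase I, had 140.1, 144 and 136 CPM in the controls and 41.2, 47.2 and 42.6 CPM with shAhR-2 (−1.68 ± 0.045). The small nucleolar RNP genes RRP9 (−1.69 ± 0.067), NHP2 (−1.63 ± 0.058, with 27.4% of its exonic bases opposite another gene) and FBL, the methyltransferase fibrillarin (−1.24 ± 0.034), fell. The 2 risers were RRN3 (0.16 ± 0.047) and PPAN (0.21 ± 0.069), where 59.8% of the exonic bases of PPAN belong to another gene as well. PPAN lost its call without control replicate 3 (adjusted p = 0.0867). All 20 cytosolic tRNA synthetase genes fell (median −0.64), 6 by at least 2-fold. Both subunits of phenylalanyl-tRNA synthetase, FARSA (from 151 ± 5.96 to 38.7 ± 0.669 CPM) and FARSB (from 267 ± 4.62 to 89.4 ± 3.36 CPM), were among the steepest, with CARS1 (−1.51 ± 0.055) and AARS1 (−1.26 ± 0.042).

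Most genes of biosynthetic metabolism fell, beside 37.2% of all tested genes that fell, 9.48% by at least 2-fold, and 38% that rose. Of 26 genes of serine and folate synthesis and the amino acid response 24 fell, 16 by at least 2-fold, and 2 rose (median −1.18). PHGDH, the entry enzyme of serine synthesis, had 289, 290.2 and 274 CPM in the controls and 62.8, 58.5 and 58.8 CPM with shAhR-2 (−2.24 ± 0.035), and MTHFD1L, of mitochondrial folate metabolism, fell from 87.1 ± 3.85 to 18.6 ± 1.76 CPM. The risers were the stress factor ATF3 (1.03 ± 0.12) and the lipoprotein receptor VLDLR (0.59 ± 0.078). Of 24 cholesterol genes 23 were tested, 19 fell (median −0.62). Among them was LSS, lanosterol synthase (−1.43 ± 0.067). Of 28 glycolysis and hypoxia genes 27 were tested, 18 fell and 6 rose (median −0.49). The hexokinase HK2 (−1.52 ± 0.049), LDHA (−1.77 ± 0.10) and ALDOC (−1.68 ± 0.10) fell, while the glucose transporter SLC2A3 rose from 0.907 ± 0.138 to 15.3 ± 2.09 CPM, NDRG1 from 2.94 ± 0.771 to 16.8 ± 1.02 CPM and VEGFA by 0.41 ± 0.032. Among 30 nuclear-encoded respiratory chain genes 26 fell and 1, COX4I1, rose by 0.1 ± 0.032 (median −0.43). The call of COX4I1 was lost without control replicate 2 (adjusted p = 0.0648) or 3 (adjusted p = 0.0538). NDUFB10 (−1.3 ± 0.051) and ATP5F1C (−1.13 ± 0.036) were among the fallers. Of the 13 mitochondrially encoded mRNAs 5 rose and 5 fell, but without replicate 1 of shAhR-2, whose mitochondrial share was highest, 2 rose and 8 fell.

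Chaperone genes fell, with few exceptions, beside 37.2% of all tested genes that fell and 38% that rose. Of 20 heat shock genes 18 were tested, 17 fell and 1 rose (median −0.78), and HSPA1B had no count. DNAJB1, a heat-inducible cochaperone, had 139.6, 158 and 152 CPM in the controls and 56.8, 55.8 and 58.9 CPM with shAhR-2 (−1.39 ± 0.043), and the mitochondrial chaperonin partner HSPE1 fell from 133 ± 6.11 to 53.6 ± 0.854 CPM. The riser was HSPB1 (0.68 ± 0.067), a small heat shock protein. Of 18 genes of the unfolded protein response 14 fell and 2 rose (median −0.49). The endoplasmic reticulum chaperones HYOU1 (−1.04 ± 0.036) and PDIA4 (−1.02 ± 0.031) fell, and DNAJB9 rose by 0.86 ± 0.054.

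Most extracellular matrix genes rose. Of 21 collagen genes 16 were tested, 15 rose, 13 of them by at least 2-fold, and 1 fell (median 1.91). Over all tested genes 38% rose and 18.3% rose by at least 2-fold. Of the 16, 3 were under the filter level in at least 1 control, so their passing may rest on the higher groups. COL6A3, a chain of the microfibrillar collagen VI, had 4.32, 4.02 and 5.25 CPM in the controls and 123, 135 and 132 CPM with shAhR-2 (4.84 ± 0.070). COL1A1, the major fibrillar chain, had 1.68, 1.55 and 1.11 CPM in the controls and 28.3, 28.3 and 23.8 CPM with shAhR-2, and COL3A1 rose from 3.95 ± 0.198 to 39.4 ± 0.561 CPM. COL7A1, the anchoring fibril collagen, rose from 1.84 ± 0.525 to 33.5 ± 4.45 CPM, and COL4A2 of basement membranes fell from 16.9 ± 0.385 to 11.4 ± 0.444 CPM. Of 35 matrix glycoprotein and linker genes 29 were tested, 23 rose, 19 by at least 2-fold, and none fell (median 1.69, 6 under the filter level in a control). SPARC, a collagen-binding matricellular protein, had 22.9, 19.96 and 20.8 CPM in the controls and 261, 255 and 258 CPM with shAhR-2. LTBP2, which sits on fibrillin fibres, rose from 2.398 ± 0.175 to 58.8 ± 3.17 CPM, AGRN, which clusters acetylcholine receptors, from 1.68 ± 0.603 to 10.9 ± 0.873 CPM and FN1, fibronectin, from 16.99 ± 0.788 to 54.7 ± 8.83 CPM. Groups without overlap were a condition for naming genes by the size of their change. All 3 shAhR-2 libraries lay above every control for 39.1% of all tested genes.

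Most adhesion receptor and matrix enzyme genes rose, beside 38% of all tested genes that rose and 37.2% that fell. Of 27 laminin and integrin genes 23 were tested, 18 rose and 3 fell (median 1.24, 4 under the filter level in a control). ITGA1, a collagen receptor, had 55.1, 54.1 and 55.4 CPM in the controls and 274, 301 and 309 CPM with shAhR-2. ITGA11, another collagen receptor, had 8.25, 7.21 and 7.15 CPM in the controls and 91.1, 95.2 and 90.6 CPM with shAhR-2. ITGAV, a partner in fibronectin and vitronectin receptors, rose from 55.03 ± 2.08 to 252 ± 5.67 CPM, and the laminin chain LAMA5 from 8.27 ± 0.707 to 45.5 ± 2.07 CPM. The laminin chains LAMC1 (−1.06 ± 0.033) and LAMB1 (−0.58 ± 0.029) fell, and ITGA8 had −0.14 ± 0.060 (adjusted p = 0.0378), a call lost in edgeR's test with RLE size factors (adjusted p = 0.055) and without shAhR-2 replicate 1 (adjusted p = 0.14). Of 26 proteases and inhibitors 22 were tested, 17 rose and 4 fell (median 1.0, 3 under the filter level in a control). The membrane metalloproteinase MMP15 rose from 1.58 ± 0.238 to 55.7 ± 5.08 CPM, PLAT, tissue plasminogen activator, from 19.6 ± 0.469 to 119.7 ± 5.696 CPM, and TIMP2, a metalloproteinase inhibitor, from 119 ± 5.37 to 407 ± 8.898 CPM. The metalloproteinases MMP24 (−2.13 ± 0.049) and ADAMTS19 (−2.22 ± 0.044) fell.

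Contractile genes were split, beside 38% of all tested genes that rose and 37.2% that fell. Of 20 listed 16 were tested, 9 rose, all by at least 2-fold, and 5 fell (median 1.27, 2 under the filter level in a control), while MYOCD, the master coactivator of smooth muscle, had no count. CNN1, the actin-binding protein calponin, rose from 0.504 ± 0.228 to 22.2 ± 0.495 CPM. TPM2, a tropomyosin of thin filaments, had 4.08, 3.07 and 3.38 CPM in the controls and 47.1, 38.9 and 34.1 CPM with shAhR-2 (3.51 ± 0.11). TAGLN, the actin-binding transgelin, rose from 3.64 ± 0.292 to 17.9 ± 1.82 CPM, ACTA2, smooth muscle actin, from 2.001 ± 1.05 to 7.94 ± 1.17 CPM (30.1% of its exonic bases lie opposite another gene), TPM1 from 129.7 ± 2.03 to 360.4 ± 18.4 CPM and MYLK, myosin light chain kinase, from 4.54 ± 0.482 to 11.5 ± 0.749 CPM. SMTN (−1.02 ± 0.081), SYNPO2 (−0.93 ± 0.035) and CNN3 (−0.66 ± 0.036) fell. Contractile promoters are known for the CArG box, the site of serum response factor, searched as CC, 6 bases of A or T and GG. It was in 5 of 32 windows of the tested list members (15.6%), beside 1.29% of all windows and 1.13% of those of tested genes. Members with a match in the 200 bases before the start site and a mean of at least 5 CPM include MYLK (chr3:123620549-123620748, minus strand) and the calponin gene CNN2 (chr19:1026408-1026607, plus strand), shown with the box in capitals.
MYLK: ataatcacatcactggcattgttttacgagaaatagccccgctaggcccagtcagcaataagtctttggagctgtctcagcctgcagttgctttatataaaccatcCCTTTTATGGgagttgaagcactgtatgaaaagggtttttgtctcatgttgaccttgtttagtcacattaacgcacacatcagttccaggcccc
CNN2: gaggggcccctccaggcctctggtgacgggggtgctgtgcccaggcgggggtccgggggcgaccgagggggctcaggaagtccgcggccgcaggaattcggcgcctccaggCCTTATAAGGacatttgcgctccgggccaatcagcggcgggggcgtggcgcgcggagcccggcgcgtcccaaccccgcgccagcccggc
The box began at −94 from the start site in MYLK and at −89 in CNN2. CNN2 rose from 28.3 ± 2.84 to 65.3 ± 1.93 CPM.

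Most ligand, receptor and feedback genes of the TGF-beta pathway rose. Of all tested genes 38% rose, 18.3% by at least 2-fold, and 37.2% fell. Of 26 genes, each of them tested, 21 rose, 13 by at least 2-fold, and 3 fell (median 1.06, 4 under the filter level in a control). The ligand gene TGFB1 had 5.66, 5.88 and 6.68 CPM in the controls and 33.3, 34.6 and 31.9 CPM with shAhR-2 (2.45 ± 0.094), and the receptor TGFBR2 rose from 5.34 ± 0.508 to 17.9 ± 0.706 CPM. Inhibitory SMAD7 rose from 18.4 ± 0.7704 to 70.02 ± 2.76 CPM and SMAD6 from 86.1 ± 6.01 to 290.0 ± 16.3 CPM. TGFBI, a matrix protein named for its induction by TGF-beta, had 0.243, 0.167 and 0.0493 CPM in the controls and 8.42, 7.401 and 8.91 CPM with shAhR-2. SMAD4, the shared transducer (−0.28 ± 0.052), and the corepressor SKI (−0.54 ± 0.048) fell. Of 22 BMP genes 17 were tested, 11 rose and 5 fell (median 0.31, 3 under the filter level in a control). BAMBI, a decoy receptor, had 36.5, 32.9 and 36.98 CPM in the controls and 228, 211 and 211 CPM with shAhR-2, the receptor BMPR2 rose by 1.31 ± 0.035 and SMAD1 by 0.93 ± 0.058. The target genes ID1 (−0.41 ± 0.045) and ID3 (−0.68 ± 0.072) fell.

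The lists of other signalling pathways held risers and fallers, beside 38% of all tested genes that rose and 37.2% that fell. Of 36 Wnt genes 31 were tested, 13 rose and 7 fell (median 0.2, 6 under the filter level in a control). Beside SFRP1, the secreted gene DKK3 rose from 5.78 ± 0.855 to 32.5 ± 0.608 CPM, the ligand WNT5B from 2.02 ± 0.437 to 8.02 ± 1.22 CPM and the nuclear effector LEF1 from 3.59 ± 0.486 to 9.59 ± 0.569 CPM. The coreceptor LRP5 fell from 83.3 ± 3.398 to 27.6 ± 1.96 CPM and the R-spondin receptor LGR5 from 141 ± 5.73 to 57.3 ± 3.31 CPM. Of 23 Notch genes 19 were tested, 12 rose, 10 by at least 2-fold, and 5 fell (median 1.01, 2 under the filter level in a control). The effectors HES1 (from 8.87 ± 0.744 to 29.95 ± 2.01 CPM) and HEY1 (from 45.9 ± 4.04 to 127 ± 3.18 CPM) and the ligand JAG2 (1.48 ± 0.093) rose. DLK1, a noncanonical ligand of immature sympathoadrenal cells, had 545, 534 and 505 CPM in the controls and 190.0, 200.2 and 200.3 CPM with shAhR-2 (−1.42 ± 0.032), and HES6, an opponent of HES1, fell (−0.89 ± 0.11). Of 25 YAP target and AP-1 genes 24 were tested, 19 rose and 2 fell (median 0.96, 5 under the filter level in a control). The immediate early genes EGR1 (from 11.7 ± 3.18 to 31.2 ± 2.26 CPM) and JUN (from 42.5 ± 2.75 to 102 ± 2.54 CPM) rose, and JUND fell (−1.01 ± 0.055).

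Most receptor genes of neurotrophic and growth factors rose. Of all tested genes 38% rose, 18.3% by at least 2-fold, and 37.2% fell. Of 24 receptor kinase, coreceptor and ligand genes 21 were tested, 16 rose, 14 by at least 2-fold, and 3 fell (median 1.47, 1 under the filter level in a control). NGFR, the low-affinity neurotrophin receptor, had 0.291, 0.476 and 0.543 CPM in the controls and 11.98, 8.42 and 7.88 CPM with shAhR-2, and 27.1% of its exonic bases lie opposite another gene. The RET coreceptor GFRA2 rose from 16.7 ± 2.01 to 75.7 ± 2.52 CPM, FGFR3 from 1.901 ± 0.175 to 20.6 ± 1.25 CPM and LTK from 7.92 ± 0.935 to 35.9 ± 2.31 CPM. ALK, an oncogene of neuroblastoma and close relative of LTK, fell from 16.4 ± 1.47 to 12.6 ± 0.435 CPM, EGFR from 89.5 ± 4.86 to 55.2 ± 0.162 CPM and IGF1R from 94.9 ± 8.14 to 68.9 ± 5.06 CPM. Of 20 retinoic acid genes 14 were tested, 9 rose, 4 by at least 2-fold, and 3 fell (median 0.43, 2 under the filter level in a control). CRABP2 was by far the largest rise of this list among genes of at least 5 CPM. The receptors RARG (0.49 ± 0.10) and RARB (1.36 ± 0.45, adjusted p = 0.0504 without control replicate 2) rose, RARA was not called (0.02 ± 0.058, adjusted p = 0.776 in edgeR's test), and RDH10, which makes retinal from retinol, fell from 27.4 ± 1.34 to 6.63 ± 0.0759 CPM. CYP26A1, the retinoic acid hydroxylase that retinoic acid induces, had no count in the 6 libraries.

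Of 22 adrenergic core transcription factor genes 9 rose and 11 fell (median −0.14), beside 38% and 37.2% of all tested genes. HAND2 had 520.3, 508 and 511 CPM in the controls and 111, 115 and 114 CPM with shAhR-2 (−2.18 ± 0.030), while its paralog HAND1 had 430.3, 433 and 415 CPM in the controls and 895, 894 and 897 CPM with shAhR-2 (1.07 ± 0.027). INSM2 fell from 233 ± 5.24 to 69.97 ± 4.89 CPM and TFAP2B from 167 ± 1.86 to 74.2 ± 6.55 CPM. GATA2 (0.47 ± 0.028), TBX2 (0.55 ± 0.032) and TBX3 (0.64 ± 0.033) rose, and GATA3 had −0.09 ± 0.033 (adjusted p = 0.0193, and 0.193 without shAhR-2 replicate 2). Of 30 mesenchymal factors and markers 26 were tested, 19 rose and 2 fell (median 0.69, 4 under the filter level in a control). NES, the intermediate filament of neural stem cells, had 10.5, 7.52 and 9.72 CPM in the controls and 138, 109 and 99.8 CPM with shAhR-2 (3.65 ± 0.094), SNAI1, a repressor of epithelial genes, rose from 12.9 ± 2.08 to 60.4 ± 2.91 CPM, AEBP1 from 31.5 ± 1.605 to 87.96 ± 0.602 CPM and VIM by 0.61 ± 0.036, and LGALS1 fell from 46.3 ± 1.34 to 22.1 ± 2.25 CPM. Of 21 SOX and neural crest genes 18 were tested, 10 rose and 2 fell (median 0.64, 4 under the filter level in a control), with MSX2 (from 42.9 ± 0.501 to 108 ± 4.04 CPM) rising and SOX11 (from 8.54 ± 0.289 to 5.15 ± 0.337 CPM) falling. Of 31 HOX genes 15 were tested, 10 rose and 2 fell (median 0.49, 1 under the filter level in a control). Genes of the HOXD cluster included HOXD8 (1.15 ± 0.13) and HOXD13 (1.15 ± 0.087), and 8 listed HOXA and HOXB genes had no count.

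Genes of the noradrenergic transmitter system mostly fell, beside 37.2% of all tested genes that fell and 38% that rose. Of 20 catecholamine genes 17 were tested, 10 fell and 6 rose (median −0.37, 1 under the filter level in a control). DBH, which makes noradrenaline, had 538, 516 and 488 CPM in the controls and 165, 179 and 184 CPM with shAhR-2 (−1.54 ± 0.036). SLC6A2, the noradrenaline transporter, fell from 196 ± 10.8 to 72.6 ± 4.88 CPM, the autoreceptor genes ADRA2A from 15.7 ± 0.246 to 5.83 ± 1.14 CPM and ADRA2C from 24.2 ± 0.912 to 7.11 ± 0.658 CPM. GCH1, which makes the cofactor of tyrosine hydroxylase, had 13.4, 15.2 and 14.2 CPM in the controls and 44.7, 53.4 and 53.5 CPM with shAhR-2 (1.82 ± 0.073), and DDC rose by 0.31 ± 0.029. Of 22 granin and neuropeptide genes 15 were tested, 6 rose and 7 fell (median −0.02, 1 under the filter level in a control). CHGA and CHGB, the chromogranins, fell from 803 ± 10.3 to 374 ± 17.3 CPM and from 846 ± 17.1 to 479 ± 14.2 CPM, while secretogranin SCG2 rose from 475 ± 6.701 to 1015 ± 39.1 CPM and the neuropeptide gene CARTPT from 0.484 ± 0.0882 to 16.01 ± 2.83 CPM. Of 12 genes that serve as identity markers of the line 10 fell and 2 rose, ISL1 (0.51 ± 0.040) and DDC (median −0.69), with each still detected.

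Neuronal structure genes moved in both directions, beside 38% of all tested genes that rose and 37.2% that fell. Of 30 microtubule and neurofilament genes 11 rose and 18 fell (median −0.39, 1 under the filter level in a control). DCX, doublecortin of young neurons, had 80.0, 76.7 and 75.5 CPM in the controls and 497, 499 and 499.9 CPM with shAhR-2 (2.69 ± 0.033), and the neuronal kinesin KIF5A rose from 29.1 ± 1.86 to 83.6 ± 1.89 CPM. KIF1A, the motor of synaptic vesicle precursors, had 437, 433 and 407 CPM in the controls and 88.9, 101 and 93.1 CPM with shAhR-2 (−2.17 ± 0.037), and the neurofilament gene NEFL fell from 253 ± 2.39 to 92.6 ± 7.87 CPM. Of 37 synaptic genes 33 were tested, 16 rose and 13 fell (median 0.00, 2 under the filter level in a control). NRXN2 (from 5.83 ± 0.4697 to 23.1 ± 1.398 CPM) and SYT4 (from 18.3 ± 0.907 to 60.3 ± 6.22 CPM) rose, and the vesicle genes SYN1 (from 29.6 ± 0.811 to 8.52 ± 1.39 CPM) and CPLX1 (from 111 ± 0.488 to 31.5 ± 3.05 CPM) fell. Of 40 axon guidance genes 35 were tested, 19 rose and 11 fell (median 0.13, 3 under the filter level in a control). The semaphorin coreceptor NRP2 had 48.5, 46.4 and 47.4 CPM in the controls and 299, 299.6 and 290.1 CPM with shAhR-2 (2.64 ± 0.036), EFNB3 rose from 1.29 ± 0.0635 to 13.2 ± 0.635 CPM, and ROBO1 fell from 110.1 ± 3.52 to 61.2 ± 6.96 CPM. Of 39 neural adhesion genes 29 were tested, 10 rose and 15 fell (median −0.13, 3 under the filter level in a control). NCAM1 rose from 323 ± 4.84 to 789.5 ± 7.72 CPM, while PCDH7 (from 17.5 ± 1.61 to 3.31 ± 0.641 CPM), CLSTN2 (from 124 ± 2.55 to 25.9 ± 4.84 CPM) and CNTN1 (from 303 ± 9.54 to 92.2 ± 4.85 CPM) fell.

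Most voltage-gated channel genes rose. For changes of any size, transmitter receptor genes rose and fell in shares near those of all tested genes (38% and 37.2%). By at least 2-fold, 18.3% of all tested genes rose and 9.48% fell. Of 38 voltage-gated channel genes 32 were tested, 23 rose, 16 by at least 2-fold, and 3 fell (median 1.06, 7 under the filter level in a control). The sodium channel SCN3A had 5.05, 4.76 and 6.31 CPM in the controls and 30.1, 32.9 and 34.9 CPM with shAhR-2 (2.6 ± 0.093), the potassium channel KCNC4 rose from 2.24 ± 0.565 to 15.6 ± 0.683 CPM and the calcium channel CACNA1D from 2.01 ± 0.567 to 13.2 ± 0.555 CPM. CACNA2D2 (−0.76 ± 0.056) and SCN9A (−0.6 ± 0.071) fell. Of 33 transmitter receptor genes 23 were tested, 8 rose and 9 fell (median −0.13, 2 under the filter level in a control). Of these, 5 rose and 7 fell by at least 2-fold. CHRNB2, a nicotinic acetylcholine receptor subunit, had 117, 112 and 108 CPM in the controls and 19.4, 20.2 and 20.2 CPM with shAhR-2. CHRNB4, a subunit of the ganglionic receptor, had 119.8, 135 and 122 CPM in the controls and 16.9, 21.9 and 22.9 CPM with shAhR-2. CHRNA5, with 28.4% of its exonic bases opposite another gene, fell (−1.31 ± 0.075). The kainate receptor gene GRIK2 (0.58 ± 0.039) and GABBR1 (0.84 ± 0.089) rose.

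Of 16 BCL2 family genes 15 were tested, 7 rose and 6 fell (median 0.12, 1 under the filter level in a control). Of these, 6 rose and 2 fell by at least 2-fold. BCL2, the survival gene, had 35.3, 32.2 and 33.8 CPM in the controls and 216, 233 and 240.0 CPM with shAhR-2 (2.76 ± 0.044), and the death-promoting BOK (from 1.45 ± 0.294 to 19.9 ± 1.002 CPM), BMF (from 7.6 ± 1.15 to 30.9 ± 3.26 CPM) and BCL2L11 (from 23.5 ± 1.73 to 66.8 ± 1.15 CPM) rose beside it. The survival gene BCL2L1 (from 34.9 ± 0.7002 to 15.1 ± 0.785 CPM, with 43% of its exonic bases opposite another gene) and the effector BAX (from 73.3 ± 1.33 to 38.02 ± 2.36 CPM) fell. Over all tested genes 38% rose and 37.2% fell, near the shares of this family for changes of any size. By at least 2-fold, 18.3% of all tested genes rose and 9.48% fell. Of 37 interferon and antigen presentation genes 26 were tested, 18 rose, 16 by at least 2-fold, and 5 fell (median 1.11), and 9 of the 26 were under the filter level in a control. NLRC5, the transactivator of HLA class I genes, had 8.497, 8.16 and 7.33 CPM in the controls and 38.3, 37.4 and 40.6 CPM with shAhR-2 (2.28 ± 0.078), and HLA-C rose from 12.1 ± 0.838 to 24.4 ± 2.31 CPM, STAT2 from 10.7 ± 0.349 to 28.5 ± 0.991 CPM, while B2M fell (−0.18 ± 0.036).

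Chromatin, growth and metal genes completed the lists, and over all tested genes 38% rose and 37.2% fell. Of 30 Polycomb and DNA methylation genes 12 rose and 16 fell (median −0.21). The maintenance methyltransferase DNMT1 had 545, 519.8 and 529.7 CPM in the controls and 204, 202 and 197 CPM with shAhR-2 (−1.4 ± 0.029), and the Polycomb gene CBX8 (1.21 ± 0.085) rose. Of 20 histone variant and linker genes 6 rose and 12 fell (median −0.24, 1 under the filter level in a control), with the DNA damage variant H2AX going from 121 ± 1.88 to 21.8 ± 1.53 CPM and H2AC6 rising from 2.73 ± 0.221 to 7.78 ± 0.819 CPM. HMGA1, an architectural chromatin protein of embryonic and tumour cells, had 395, 405 and 379 CPM in the controls and 76.3, 81.9 and 77.8 CPM with shAhR-2 (−2.32 ± 0.034). LIN28B, which blocks let-7 maturation, rose from 212 ± 6.27 to 319 ± 10.2 CPM, and the fetal growth factor IGF2 fell from 322 ± 13.9 to 179 ± 3.41 CPM. Of 14 genes in that oncofetal list 10 were tested, 3 rose and 5 fell (median −0.19, 1 under the filter level in a control). Of 16 iron genes 13 were tested, 6 rose and 6 fell (median −0.00483, and 0.00703 with RLE size factors), with the transferrin receptor TFRC (from 1144 ± 57.8 to 479 ± 52.9 CPM) and ferritin light chain FTL (from 302 ± 6.698 to 159 ± 4.85 CPM) falling. Of 14 polyamine genes 13 were tested, 4 rose and 7 fell (median −0.1), with spermidine synthase SRM (from 122 ± 5.29 to 50.5 ± 1.25 CPM) falling and spermine oxidase SMOX (from 1.49 ± 0.238 to 8.75 ± 0.488 CPM) rising. Of the 5 subunits of the volume-regulated anion channel 1 rose and 3 fell (median −0.17, 1 under the filter level in a control), and the obligatory subunit LRRC8A had 124, 119 and 113 CPM in the controls and 18.98, 19.9 and 15.9 CPM with shAhR-2 (−2.7 ± 0.058).

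**Figure D4:**
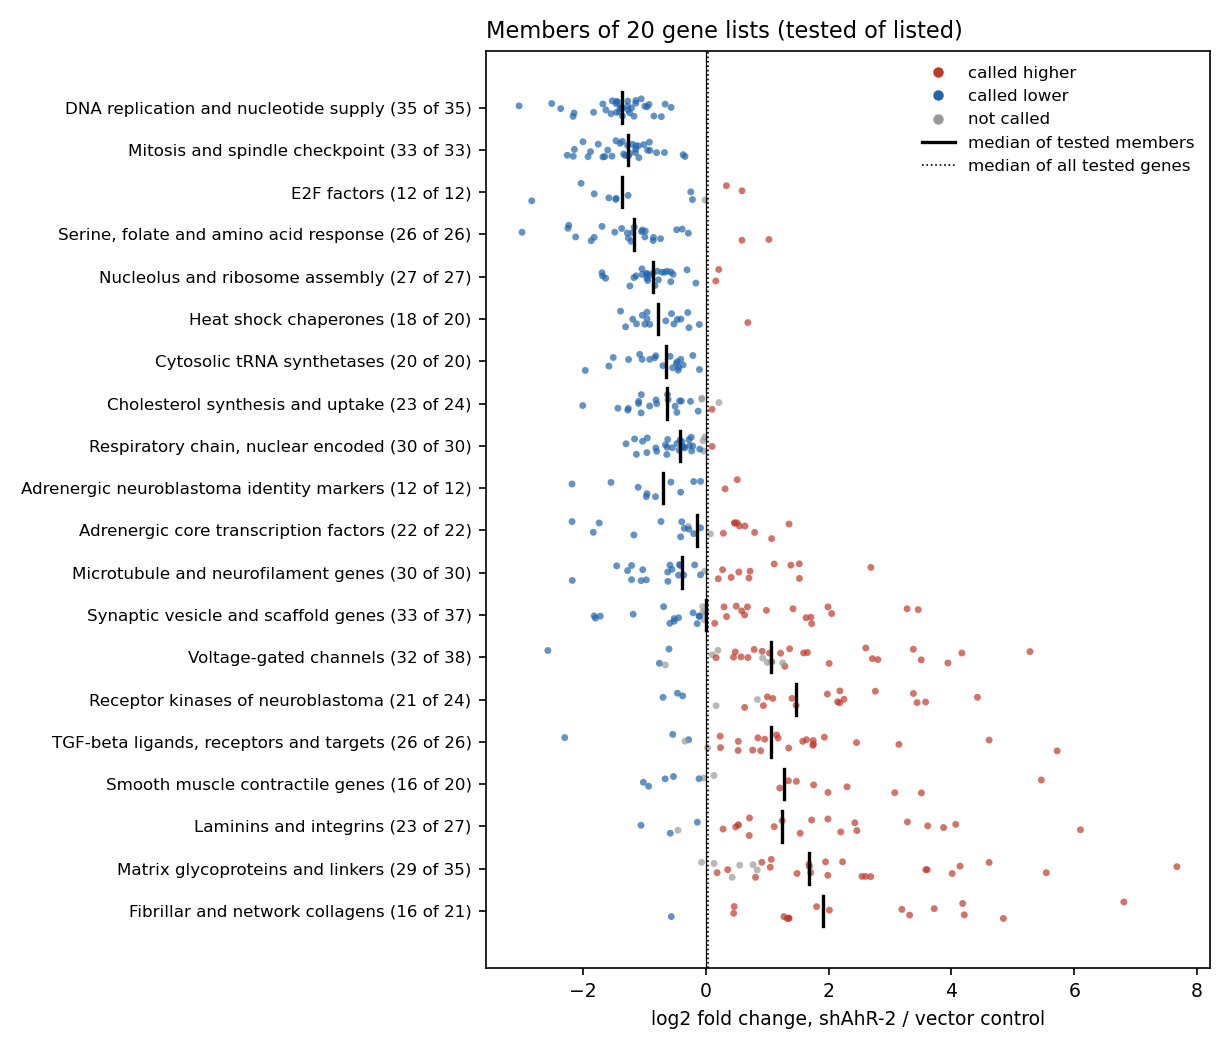
Each row is 1 of 20 gene lists and each point 1 tested member at its log2 fold change of shAhR-2 over control, with red for called higher, blue for called lower and grey for not called; black bars are list medians and the dotted line the median of all tested genes, 0.03. Replication, mitosis, nucleolar and tRNA synthetase genes lie to the left, matrix, integrin, TGF-beta and receptor kinase genes to the right, and synaptic genes on both sides.

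Markers of other cell types were measured for comparison, beside 38% of all tested genes that rose and 37.2% that fell. Leukocyte markers summed to 0.801 to 1.88 CPM in the controls and 1.73 to 2.13 CPM with shAhR-2 over 12 genes, 3 of 12 were tested and none was called by edgeR, 1 (CD74) having an unadjusted p of 0.0416 (adjusted 0.055, and 0.0372 without shAhR-2 replicate 1), while DESeq2 called 1, CD74 (adjusted p = 0.0459), and HLA-DRA and CD2 were at 0. Fibroblast markers summed to 226 to 234 CPM in the controls and 569 to 585 CPM with shAhR-2 over 17 genes, 12 were tested, 9 rose and 1 fell, and TCF21 was at 0. The fibroblast markers that rose were COL1A1, COL3A1, COL6A1, COL6A2, COL6A3, ACTA2, PDGFRA (from 1.08 ± 0.129 to 7.302 ± 0.138 CPM), PDGFRB (from 34.9 ± 1.901 to 66.9 ± 4.57 CPM) and THY1 (from 72.3 ± 0.563 to 122 ± 6.28 CPM), while DCN was not called (0.12 ± 0.14, adjusted p = 0.455), LUM fell from 49.5 ± 2.52 to 36.3 ± 3.19 CPM, and FAP, DPT and PI16 did not pass the filter. Nor did the collagen gene COL1A2, with 1, 2 and 0 counts in the controls and 0, 0 and 0 with shAhR-2. Schwann cell and glial markers summed to 22.4 to 26.1 CPM in the controls and 83.1 to 87.7 CPM with shAhR-2 over 13 genes, 8 were tested (3 under the filter level in a control), 6 rose and none fell. PMP22 rose from 20.6 ± 1.35 to 61.6 ± 4.62 CPM and ERBB3 from 0.421 ± 0.126 to 5.05 ± 0.954 CPM, SOX10 was not called (0.92 ± 0.65, adjusted p = 0.206), and CDH19, PTPRZ1 and FABP7 were at 0. Epithelial markers summed to 6.34 to 8.71 CPM in the controls and 16.7 to 17.7 CPM with shAhR-2 over 9 genes, 6 were tested (2 under the filter level in a control) and 4 rose, with KRT5 and CDH1 at 0. Endothelial markers summed to 2.38 to 3.45 CPM in the controls and 9.42 to 10.6 CPM with shAhR-2 over 10 genes, 5 were tested (1 under the filter level in a control), 2 rose and 1 fell, and melanocyte markers to 6 to 8.06 CPM in the controls and 2.14 to 3.45 CPM with shAhR-2 over 6 genes, 4 were tested and 2 fell. Of the tested leukocyte markers 2 were under the filter level in a control, as were 2 of the tested melanocyte markers. The part of all these cell type markers in the rise of matrix genes was not tested. Adjusted p values here are from edgeR's quasi-likelihood test.

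The other hairpin allowed a direct contrast in the same line. AHR counts were 8, 0 and 0 in the shAhR-1 libraries, so AHR was not shown to be lower there than in the controls. In edgeR's test of shAhR-2 against shAhR-1, 11396 of 15732 genes differed (72.4%), 5743 higher and 5653 lower with shAhR-2, and 2577 (16.4%) and 1302 (8.28%) by at least 2-fold. CRABP2 had 3.23, 3.66 and 2.62 CPM in the shAhR-1 libraries, below every control, and shAhR-2 exceeded them by 7.66 ± 0.058. LEFTY2 had no count with shAhR-1 and was at least 448-fold higher with shAhR-2, with the shAhR-1 group set at 3 pooled counts. The amino acid transporter gene SLC6A19 (8.2 ± 0.33), KIF21B (7.76 ± 0.23), ELFN1 (7.62 ± 0.21) and COL13A1 (7.35 ± 0.24) had the other largest excesses. Among the shortfalls, ABCA12 had 63.7, 75.2 and 67.9 CPM with shAhR-1, above its controls, and shAhR-2 was lower (−5.3 ± 0.090). GPX1 had 47.1, 46.7 and 47.6 CPM with shAhR-1 (−3.62 ± 0.076), followed by C1QL1 (−3.58 ± 0.10), EPN1 (−3.34 ± 0.051), NFKBIB (−3.03 ± 0.13) and MLST8 (−2.98 ± 0.072). All 12 of the largest rises and all 12 of the largest falls against the control also differed from shAhR-1 in the same direction, by fitted values of 4.38 to 11.78 and of −5.30 to −1.96 on the log2 scale, where the highest is that of LEFTY2 and depends on the prior count. The same 3 shAhR-2 libraries entered both contrasts and the genes were chosen from them, so that agreement is partly built in. MYCN was lower with shAhR-2 than with shAhR-1 (−0.7 ± 0.024). The differences of HSP90AA1 (−0.35 ± 0.027) and TFRC (−0.31 ± 0.045) were smaller and also called. Of the 33 mitosis genes 26 were lower and 5 higher with shAhR-2 than with shAhR-1, of the 35 replication genes 32 and 2, and of the 16 tested collagens 1 and 13. Both hairpins were set against the same 3 controls, and values against those controls stood at −3.71 ± 0.076 with shAhR-2 and −0.09 ± 0.057 with shAhR-1 for GPX1, −2.26 ± 0.042 and −1.32 ± 0.040 for CENPE, and 4.84 ± 0.070 and −0.47 ± 0.11 for COL6A3.

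The same hairpin in Kelly cells, with its own 3 controls and 3 shAhR-2 libraries, showed which changes recurred in another line. Over 15711 genes tested in both, the log2 fold changes correlated at Pearson r = 0.58 and Spearman rank correlation 0.626, a description across genes, which share libraries and are not replicates. Of genes at least 2-fold higher, 1193 were so in both lines, 41.4% of the 2879 in BE2C and 62.5% of the 1909 in Kelly. Of those at least 2-fold lower, 850 were shared, 57% of the 1490 in BE2C and 46.8% of the 1815 in Kelly. Opposite 2-fold changes were found for 80 genes higher in BE2C and 12 lower in BE2C. Over all 17136 genes tested in Kelly, 34.9% were called higher and 34.6% lower, 12.9% and 11.7% by at least 2-fold. Of the 12 largest falls in BE2C 11 also fell by at least 2-fold in Kelly, among them GPX1 (−3.46 ± 0.063), SLC7A11 (−5.63 ± 0.16), RFC2 (−4.0 ± 0.054) and MYO10 (−4.39 ± 0.17). ABCA12 was the exception and rose there (1.31 ± 0.36). All 12 of the largest rises were called at least 2-fold higher in Kelly too, for example ELFN1 (6.26 ± 0.17), CHRD (4.34 ± 0.35) and CRABP2 (2.76 ± 0.048). The 35 replication and 33 mitosis genes all fell in Kelly too, with medians of −2.63 and −2.04. In Kelly 11 of the 16 collagens rose and 2 fell (median 0.58). Of the 29 matrix glycoprotein genes 10 rose and 9 fell there, near the shares of all genes tested in Kelly. A fit of all 18 libraries tested the difference of the shAhR-2 change between lines, and 9366 of 17136 genes were called (54.7%), 4938 with a higher change in BE2C and 4428 with a lower one. The matrix genes CCDC80 (4.23 ± 0.087 in BE2C and −2.08 ± 0.097 in Kelly) and COL27A1 (6.81 ± 0.11 and 1.96 ± 0.15) and the calponin gene CNN1 (5.46 ± 0.17 and 0.33 ± 0.16), with MIR1-1HG-AS1, TNFRSF1A and UNC5B-AS1, had the largest differences toward BE2C. The largest differences toward Kelly were mostly at very low counts there. ARSD, PARP9, NACC2 and GATA4 had no count in any Kelly control, and pooled Kelly shAhR-2 counts of 33, 30, 27 and 12, at least 10.7-, 9.74-, 8.76- and 3.90-fold higher by a floor of 3 counts over the group. CACNA1H had 2, 0 and 0 counts in the Kelly controls and 33, 32 and 43 with shAhR-2 (ratio 52.6, exact 95% counting interval 14.2 to 440). In BE2C the same genes rose by 0.97 ± 0.092 (ARSD), 1.47 ± 0.14 (PARP9), 1.65 ± 0.096 (NACC2), 0.74 ± 0.078 (GATA4) and 1.59 ± 0.11 (CACNA1H). In Kelly MYCN had −0.61 ± 0.026.

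**Figure D5:**
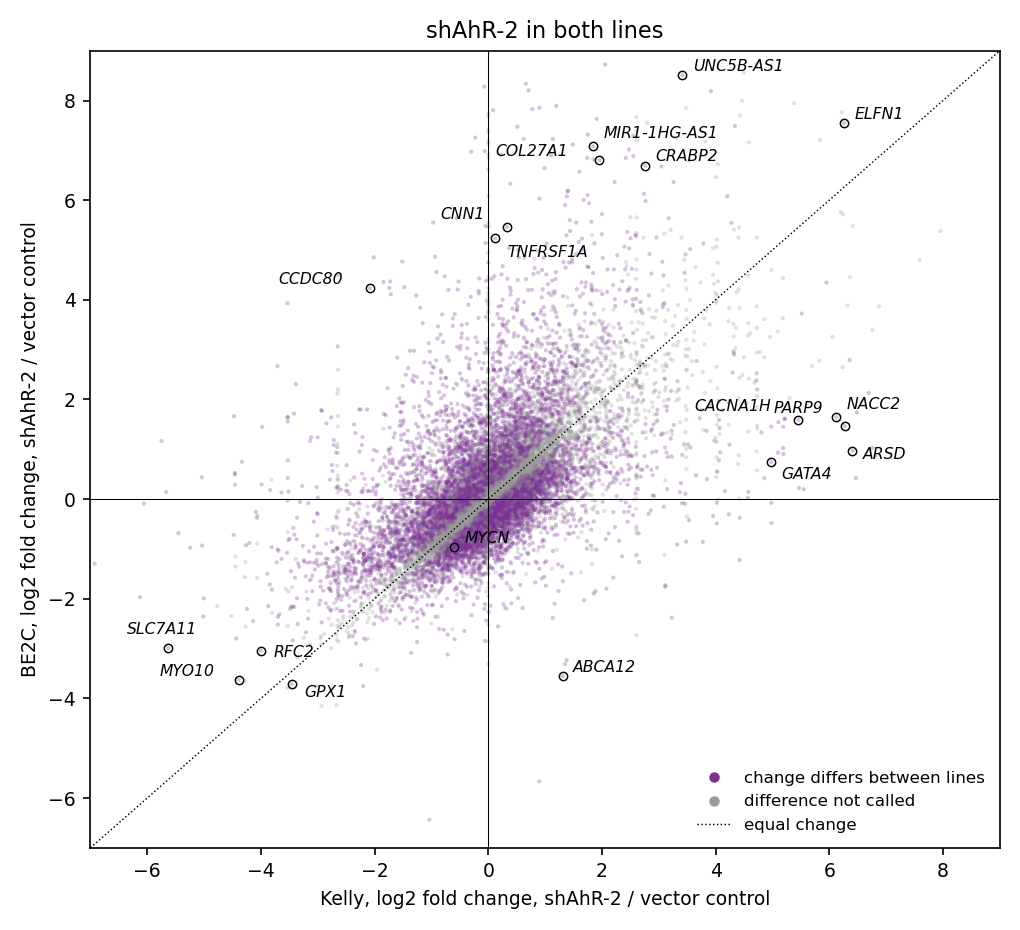
Each point is a gene at its shAhR-2 log2 fold change in Kelly (horizontal) and BE2C (vertical), purple where the difference between lines was called, with a dotted line at equal change. GPX1, MYO10, RFC2 and SLC7A11 lie low in both lines and CRABP2 and ELFN1 high in both, while CCDC80 is high in BE2C and low in Kelly and ABCA12 the reverse.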

How the data were processed

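Bulk RNA-seq of 6 groups of 3 libraries, 2 cell lines by vector control and 2 hairpins, was deposited as tables of raw counts per gene. Per the submitters' processing notes, STAR 2.7.9a, CASAVA 1.8.2 and GRCh38.p7 were used to make those counts. The counter, its annotation and its strand setting are not stated in the sources used. Counts were tested with edgeR 4.0.16 (R 4.3.3): filterByExpr, TMM factors, glmQLFit over the 9 BE2C libraries (18 for the difference between lines) and glmQLFTest, with Benjamini-Hochberg adjustment over all genes tested and a threshold of 0.05. The SE of a log2 fold change is its size divided by the square root of F. Genes were matched by symbol to GENCODE release 29 for positions, and 1219 of 1220 listed symbols were found in the tables. Named genes were the largest changes in fold or CPM with a mean of at least 5 CPM and groups that did not overlap, clone and locus names aside, up to 4 per direction in each of 56 lists, list members needed to describe a list, and the largest differences from shAhR-1 and Kelly. Some genes that met this rule are not reported here. Members and lists were chosen with earlier results of these data known. In data simulated for the main comparison, 200 of 15732 genes were changed. Of those changed 1.25-, 1.5-, 2- and 4-fold, 66%, 56%, 88% and 96% were recovered, and 7.27% of calls were false. In the real data 75.1% of genes were called, so these shares do not carry over to the real calls. Alternatives were DESeq2 1.42.0, RLE size factors, other expression filters, halved counts, fewer groups, a replicate block, no mitochondrial genes and each library left out.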

Additional observations from a re-analysis of the deposited data

Results flagged for a closer look

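The change with shAhR-2 differed between BE2C and Kelly, by the test of the difference itself in the fit of 18 libraries, for the 6 genes in each direction with the largest differences that the naming rule allows. Values are the log2 change in BE2C minus that in Kelly, with SE, and each had an adjusted p of at most 0.00941 by edgeR's quasi-likelihood test. Toward BE2C they were CCDC80, a secreted matrix protein (6.3 ± 0.14), the antisense RNA gene MIR1-1HG-AS1 (5.22 ± 0.27), the calponin gene CNN1 (5.12 ± 0.26), TNFRSF1A, the receptor of tumour necrosis factor (5.1 ± 0.20), UNC5B-AS1 (5.08 ± 0.89) and COL27A1 (4.84 ± 0.24). CCDC80 had 3.45, 5.07 and 3.85 CPM in the BE2C controls and 78.7, 77.6 and 76.4 CPM with shAhR-2, and TNFRSF1A 0.243, 0.238 and 0.641 and 16.2, 13.6 and 12.5 CPM. Toward Kelly they were ARSD, an arylsulfatase (−5.45 ± 1.2), ABCA12 (−4.87 ± 0.38), PARP9, an interferon-responsive ADP-ribosyltransferase family gene (−4.81 ± 1.5), the corepressor NACC2 (−4.49 ± 1.4), GATA4 (−4.25 ± 1.4) and the calcium channel gene CACNA1H (−3.88 ± 0.64). Of these, ABCA12 fell in BE2C and rose in Kelly, and CCDC80 rose in BE2C and fell in Kelly, while ARSD, PARP9, NACC2, GATA4 and CACNA1H were called higher in both. ARSD, PARP9, NACC2 and GATA4 had no count in any Kelly control and 12 to 33 pooled counts with shAhR-2 there, and CACNA1H had 2 and 108, so their fitted differences depend on the prior count and are no bounds. GATA4 in Kelly had 6, 0 and 6 counts with shAhR-2. The genes were chosen for the size of this difference, so its size is a description. Groups of 3 libraries were too small for a check of single outlying libraries by their gaps.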

How the results depend on the processing

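In BE2C shAhR-2 against control, 11817 genes were called, and 10496 to 12078 over 17 alternatives. With a filter of at least 1 mean CPM, which tested 12734 genes, 1908 genes were at least 2-fold higher instead of 2885, and no other count of this comparison, of shAhR-2 against shAhR-1 or of the difference between lines moved by over 1.5 times. Leaving out 1 library in turn gave 11383 to 11969 calls, 2820 to 3004 genes at least 2-fold higher and 1484 to 1557 lower, 10962 to 11626 calls against shAhR-1 and 9033 to 9365 for the difference between lines. The median log2 fold change of all genes, 0.03, was 0.13 without an expression filter and 0.00533 with the filter of at least 1 mean CPM. Of 275 named genes 8 lost their call under at least 1 alternative (CYP1A1, ITGA8, MT-CO3, MT-RNR2, COX4I1, GATA3, PPAN and RARB), 2 gained one (CD74 and CYP1B1), and 4 that were not called changed sign. TIPARP had a log2 fold change of 0.00488 with DESeq2, 0.00476 with RLE size factors, 0.00422 with halved counts and 0.0496 with the filter of at least 1 mean CPM. Leaving out 1 library gave −0.0654 to 0.0856 for TIPARP, −0.00956 to 0.221 for DCN, −0.0912 to 0.943 for MYC and −0.0348 to 0.0551 for RARA. The cause was not tested. The 12 genes named against shAhR-1 and the 12 for the difference between lines kept their call and direction under each alternative that could be fitted. List counts moved by at most 2 genes without shAhR-2 replicate 1, except for the mitochondrially encoded mRNAs. Same-numbered libraries did not deviate together (r of 0.0102, −0.0116 and −0.00522). Over all pairs of a control and an shAhR-2 library r lay between −0.0116 and 0.014. Values this small do not show a pairing by number and cannot exclude it. With the replicate number as a block 11738 genes were called, 2859 at least 2-fold higher and 1479 lower. At 4 to 6 control counts, AHR has wide limits, and differences among low genes rest on few reads.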
